A study of Mus musculus with 6 samples.

Results

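The genes described here encode the machinery of mitosis and cytokinesis. Of 45 listed genes, 44 had a row of the array with a single gene symbol and were measured among 30063 genes in all, and the cyclin gene Ccnb1 was not analysed here. They were divided by their part in cell division into entry (12 measured genes of the cyclin-dependent kinase switch and of chromosome structure), spindle (20 genes of spindle assembly, kinetochores and the checkpoint) and cytokinesis (12 genes of the chromosomal passenger complex, central spindle and cleavage furrow). Each of the 44 had 1 row.

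The cells were megakaryocytes of female C57 mice, sorted from bone marrow by flow cytometry on high side scatter, high CD41 and DNA of at least 8N. In the AML group (3 arrays) the mice carried acute myeloid leukaemia induced by MLL-AF9, and the control group (3 arrays) came from healthy mice. The labels give no age of the mice, no number of animals behind an array and no route by which MLL-AF9 was introduced. Replicates are named as biological there, without saying which animals they came from, so the p-values rest on the spread among these 6 arrays. The comparison sets megakaryocytes of leukaemic marrow against those of healthy marrow. Values are log2 expression, differences are AML minus control on the log2 scale, ± gives the SD within a group (n = 3), and 3 arrays per group limit the precision.

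In a dividing cell, cyclin A and cyclin B bind the kinase CDK1 to start mitosis, kinesin motors and kinetochore proteins build the spindle, and the anaphase-promoting complex with CDC20 ends it. The chromosomal passenger complex and the central spindle then place the RhoA exchange factor ECT2 at the cell equator, where the contractile ring forms. A maturing megakaryocyte passes through the same steps up to anaphase but does not complete the furrow, a cycle called endomitosis that yields one polyploid cell. Many of these genes are transcribed together late in the cell cycle, through the CHR element, which is bound by the DREAM and MYB-MuvB complexes, and through CCAAT boxes, which are bound by NF-Y.

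What the members had in common in sequence was read from RefSeq promoters (GRCm38.p6), windows of 300 bases that run from 250 before to 50 after each annotated start. A window was found for 39 of the 45 listed genes. The letters TTTGAA of the CHR element stood on either strand in 30 of the 39 (76.9%), against 20.2% of 27025 genes of the promoter table. The letters CCAAT stood in 29 (74.4%), against 41.1%, and both motifs in 24 (61.5%), against 7.97%. Within 50 bases on either side of the start, a narrower window chosen after the matches were seen, TTTGAA stood in 28 of the 39 (71.8%), against 5.72% of all genes. By class, TTTGAA was found in 7 of 11 entry, 15 of 19 spindle and 8 of 9 cytokinesis genes. A match is a description of the letters and not a bound site. Ccnb1, Cdc25b, Cks2, Cenpe and Bub1 had CCAAT without TTTGAA, and Melk, Nuf2, Birc5 and Nusap1 had neither.

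The 150 bases before the annotated start are shown for the 4 members whose level differed between the groups, Kif23, Aurka, Nusap1 and Cenpa, and for 1 member of each class that has TTTGAA ahead of the start, Cdk1, Cdc20 and Ect2, the latter chosen after the matches were seen. Capitals mark TTTGAA and CCAAT on either strand (TTCAAA and ATTGG when read on the other).
Kif23 (chr9:61946800-61946949, minus strand): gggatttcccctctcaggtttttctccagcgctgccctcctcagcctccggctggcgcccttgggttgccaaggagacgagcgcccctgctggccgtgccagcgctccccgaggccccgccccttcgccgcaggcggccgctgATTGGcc
Aurka (chr2:172370571-172370720, minus strand): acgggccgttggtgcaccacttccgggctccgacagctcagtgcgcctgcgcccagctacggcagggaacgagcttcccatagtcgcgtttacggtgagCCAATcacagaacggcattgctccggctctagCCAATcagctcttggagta
Nusap1 (chr2:119618148-119618297, plus strand): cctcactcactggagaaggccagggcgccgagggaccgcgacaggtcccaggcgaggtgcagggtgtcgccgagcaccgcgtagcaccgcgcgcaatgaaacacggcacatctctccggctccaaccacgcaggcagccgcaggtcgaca
Cenpa (chr5:30666736-30666885, plus strand): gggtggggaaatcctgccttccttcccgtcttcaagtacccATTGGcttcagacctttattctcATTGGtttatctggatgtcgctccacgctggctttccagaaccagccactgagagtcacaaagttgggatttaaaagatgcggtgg
Cdk1 (chr10:69352913-69353062, minus strand): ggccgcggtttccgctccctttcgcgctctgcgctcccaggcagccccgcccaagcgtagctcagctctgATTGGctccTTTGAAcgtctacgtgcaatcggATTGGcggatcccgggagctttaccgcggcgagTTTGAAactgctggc
Cdc20 (chr4:118437344-118437493, minus strand): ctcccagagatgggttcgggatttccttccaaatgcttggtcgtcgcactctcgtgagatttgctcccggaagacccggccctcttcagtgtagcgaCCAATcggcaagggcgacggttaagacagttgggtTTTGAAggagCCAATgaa
Ect2 (chr3:27153879-27154028, minus strand): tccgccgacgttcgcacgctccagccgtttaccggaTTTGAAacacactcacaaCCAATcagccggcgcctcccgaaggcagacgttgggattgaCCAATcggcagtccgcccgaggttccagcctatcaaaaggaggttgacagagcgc
The promoter of Kif23, which fell, and that of Aurka, which rose, both held CCAAT ahead of the start, as did that of Cenpa, which fell. In these 3 the TTTGAA letters lie after the start and are not shown. Where a gene had 2 windows the more upstream start was used. The window of Nusap1, which also fell, held neither motif.

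Few of the mitotic genes differed between the megakaryocyte sorts of leukaemic and healthy mice. Of the 44 genes, 1 rose and 3 fell in AML at an adjusted p of 0.05 (limma, Benjamini-Hochberg over all genes). That is 9.09% of the members, against 10.7% of all genes (4.49% higher and 6.25% lower), so that the share was near the background. The 4 were Kif23, a kinesin of the central spindle (1.69-fold lower), Nusap1, a microtubule-bundling protein of the spindle (1.43-fold lower), Cenpa, the histone variant of centromeres (1.39-fold lower), and Aurka, the centrosomal kinase Aurora A (1.28-fold higher). The differences of the members ran from -0.76 to +0.36, and 31 of the 44 lay within 0.2 of no difference. Their median was -0.01, against +0.11 over all genes.

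The 4 calls were not equally firm. The calls of Aurka and Nusap1 ended on omitting any one array except AML 3 (adjusted p 0.0505 to 0.0914), and that of Cenpa on omitting AML 2, AML 3, control 2 or control 3 (adjusted p 0.0565 to 0.130), while Kif23 passed whichever array was left out. Under other scalings the balance moved from 1 higher and 3 lower to 4 and 3 with renewed quantile normalization, 3 and 3 with cyclic loess and 0 and 4 with median centring, where Aurka lost its call (adjusted p = 0.111).

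The groups did not overlap in 12 members, 6 above and 6 below. This is 27.3%, against 41.3% of all genes (28.2% above and 13.1% below). An unadjusted p under 0.05 in limma was reached by 11, against 32.8% of all genes. In 36 of the 44 the spread between the arrays of 1 group was wider than the difference between the groups. The same count was not made over all genes, so whether it is particular to the members is not known. Of the 40 members not past the threshold, 36 had a 95% confidence interval that lay wholly inside a 1.5-fold difference in either direction. The other 4 were Mki67, Cdca5, Kif11 and Aurkb, all above the dim reference given below in both groups. The 36 include the 10 members below that reference in both groups, whose differences may be compressed. The share of all genes with such an interval was not counted. By class, 0 of 12 entry genes passed, 1 spindle gene rose and 2 fell of 20, and 0 cytokinesis genes rose and 1 fell of 12. The class medians were -0.01, -0.03 and -0.002, or -0.11, -0.13 and -0.11 relative to the median of all genes. That median of +0.11 includes many dim genes. Over the 12316 genes brighter than the dim reference given below it was +0.003, close to the class medians. Of the 12 entry genes, 2 had an unadjusted p under 0.05 in limma, against the 32.8% of all genes. With array weights 1 passed, in a fit where 26.1% of all genes did.

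**Figure D1:**
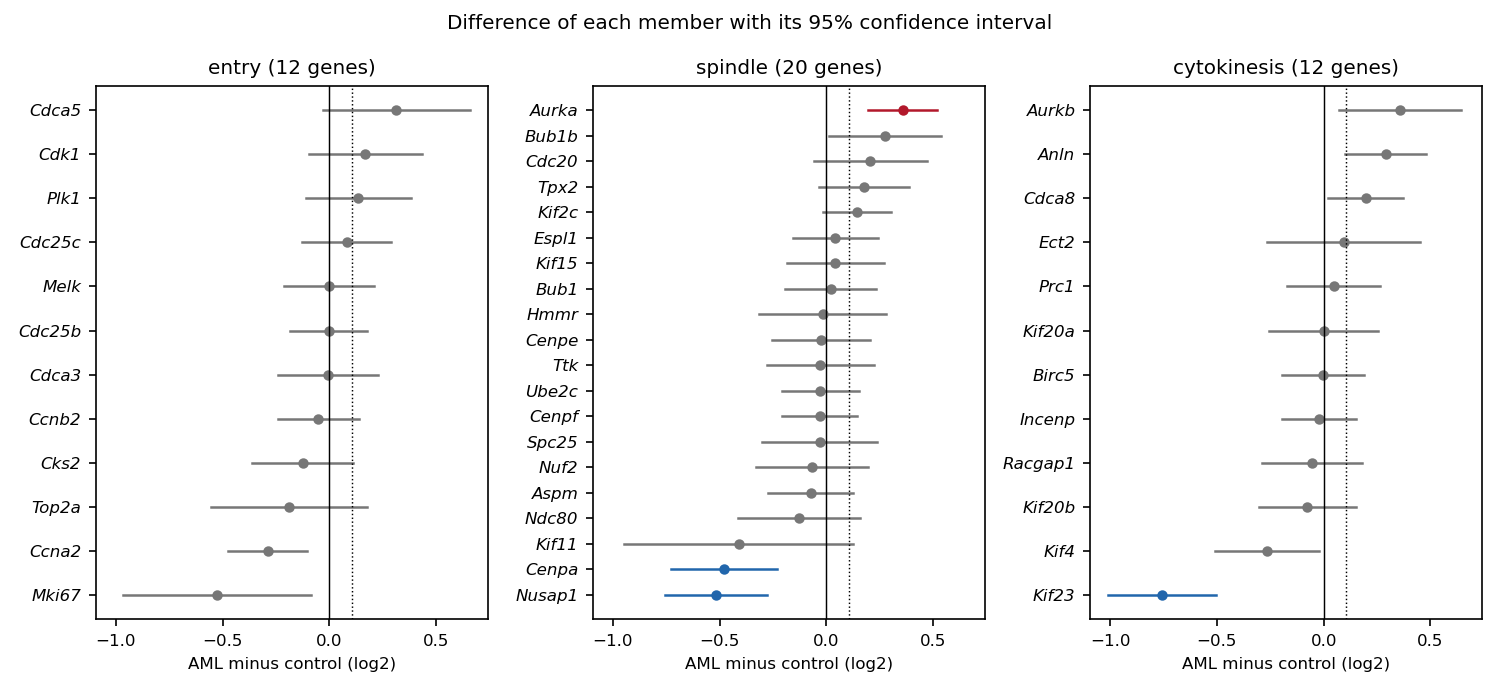
Difference of each of the 44 members between AML and control (points, log2 scale) with limma's 95% confidence interval (lines), in 3 panels by class. Red marks the gene higher and blue the 3 genes lower at an adjusted p of 0.05, grey the 40 not past it. The solid line is no difference and the dotted line the median of all genes, +0.11. Most members lie within 0.2 of the solid line and Kif23 lies farthest from it.

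Levels were modest, which bears on how small a difference can be read. The member means ran from 4.93 for Cdc25c to 9.65 for Mki67. As a dim reference, the 95th percentile of the means of 1718 olfactory and vomeronasal receptor genes was 5.51. Both group means lay above it in 31 members, 1 group mean in 3 and neither in 10, and differences of the latter may be compressed. The 4 genes that passed were among the 31, where 12.9% passed, against 16.0% of the 12316 genes above the same level. The median difference of these 31 was -0.02, against +0.003 over the 12316. The 10 were Cdc25c, Melk, Kif2c, Aspm, Cenpe, Cenpf, Nuf2, Bub1, Ttk and Ect2.

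The genes that start mitosis did not pass. Ccna2 encodes cyclin A2, which acts in S phase and at entry into mitosis. It stood at 7.29, 7.21 and 7.27 on the AML arrays and at 7.45, 7.54 and 7.65 on the control arrays. All AML values were below all control values, with a difference of -0.29 (SE 0.08, limma adjusted p = 0.0600). The gene passed as lower in 4 of 15 alternatives, with array weights, with median centring and in both fits without dim genes (adjusted p 0.0212 to 0.0429). With renewed quantile normalization the difference was -0.15 (adjusted p = 0.170). Cdk1, the kinase itself, stood at 7.71, 7.58 and 7.43 against 7.23, 7.42 and 7.56, values that overlapped (difference +0.17, SE 0.11, adjusted p = 0.306). Ccnb2, the cyclin B2 partner of CDK1, averaged 7.81 ± 0.05 against 7.86 ± 0.10. Plk1, a kinase that promotes entry and spindle assembly, averaged 6.94 ± 0.15 against 6.80 ± 0.11. Cks2, a small subunit of CDK complexes, had 7.95 ± 0.18 against 8.08 ± 0.01, and the phosphatases of CDK1, Cdc25b and Cdc25c, differed by -0.003 and +0.08. Cdca3, which promotes entry, and the kinase gene Melk differed by -0.01 and -0.001.

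Genes of mitotic chromosome structure went different ways without passing. Mki67, which encodes the proliferation marker Ki-67 that coats mitotic chromosomes, was at 9.73, 9.46 and 8.98 in AML and at 9.76, 9.995 and 9.995 in control. All AML values were below all control values, AML array 1 only just, and AML array 3 was the lowest. The difference was -0.53 (SE 0.19, 95% CI -0.97 to -0.09, adjusted p = 0.108). Cdca5, which encodes sororin and protects cohesion between sister chromatids, was at 5.90, 5.88 and 6.22 against 5.68, 5.45 and 5.92, with overlap between the groups (difference +0.31, SE 0.15, adjusted p = 0.180). Top2a, the topoisomerase that untangles chromosomes, averaged 7.10 ± 0.22 against 7.29 ± 0.24 (adjusted p = 0.397).

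Spindle assembly held the only rise and 1 of the falls. Aurka was at 6.88, 6.78 and 6.80 in AML against 6.41, 6.49 and 6.48 in control. The groups did not overlap and each was tight, and the difference was +0.36 (SE 0.07, adjusted p = 0.0233). Its binding partner and activator Tpx2 was at 7.18, 7.09 and 7.04 against 6.79, 6.94 and 7.05, where AML array 3 fell just below control array 3. Its difference was +0.17 (SE 0.09, adjusted p = 0.210, or 0.0400 with renewed quantile normalization and 0.805 with median centring). Nusap1 was at 6.90, 6.91 and 6.68 against 7.32, 7.23 and 7.48, all AML values being lower (difference -0.52, SE 0.10, adjusted p = 0.0238). The kinesin Kif11, which pushes spindle poles apart, varied widely, 6.46 ± 0.40 against 6.87 ± 0.30 (difference -0.41, 95% CI -0.95 to 0.13, adjusted p = 0.237). Kif15, a second motor of bipolar spindles, Kif2c, which removes tubulin at centromeres, and the spindle genes Aspm and Hmmr differed by +0.04, +0.14, -0.07 and -0.02.

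Of 6 kinetochore genes 1 fell. Cenpa was at 7.20, 6.89 and 6.92 in AML and at 7.37, 7.53 and 7.55 in control, without overlap (difference -0.48, SE 0.11, adjusted p = 0.0337). The outer kinetochore genes that hold microtubules were not past the threshold. Ndc80 was at 6.84, 6.78 and 6.46 against 6.71, 6.79 and 6.95, which overlapped (difference -0.13, SE 0.12, adjusted p = 0.466), and its complex partners Nuf2 and Spc25 differed by -0.07 and -0.03. The kinesin Cenpe and the corona protein Cenpf both differed by -0.03.

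Checkpoint and anaphase genes did not pass. Bub1b, which encodes the checkpoint kinase BUBR1, was at 5.66, 5.64 and 5.52 against 5.11, 5.44 and 5.46, with every AML value above every control value (difference +0.27, SE 0.11, adjusted p = 0.143), although its control mean was below the dim reference. Cdc20, the activator of the anaphase-promoting complex, was at 6.24, 6.03 and 6.44 against 5.97, 6.08 and 6.03, with overlap (difference +0.21, SE 0.11, adjusted p = 0.230). Ube2c, the ubiquitin-conjugating enzyme of that complex and among the brightest members, had 8.16 ± 0.09 against 8.19 ± 0.05. The kinases Bub1 and Ttk and Espl1, the protease separase, differed by +0.02, -0.03 and +0.04.

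The chromosomal passenger complex corrects attachments in mitosis and then moves to the central spindle. None of its 4 members passed the threshold. Of the 4, 2 had an unadjusted p under 0.05 in limma, against 32.8% of all genes. Aurkb, the kinase Aurora B, was at 7.02, 6.87 and 6.62 in AML against 6.40, 6.42 and 6.62 in control. AML array 3 lay only just above control array 3, and the other 2 AML arrays were higher (difference +0.36, SE 0.12, adjusted p = 0.0990). Cdca8, the subunit borealin, was at 7.25, 7.12 and 7.12 against 6.99, 6.90 and 7.01, without overlap (difference +0.20, SE 0.07, adjusted p = 0.123). Both passed as higher under array weights, cyclic loess and renewed quantile normalization (adjusted p 0.0124 to 0.0457), and Aurkb also without AML array 3 (adjusted p = 0.0333, difference +0.47). With median centring the differences of Aurkb and Cdca8 were +0.24 and +0.08 (adjusted p 0.322 and 0.617). Birc5, the subunit survivin, was at 6.79, 6.74 and 6.61 against 6.64, 6.77 and 6.74, a difference of -0.004 (95% CI -0.19 to 0.19), and the scaffold Incenp averaged 7.25 ± 0.09 against 7.27 ± 0.005.

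The late genes of furrow formation gave the largest single difference. KIF23 and RACGAP1 form centralspindlin, the complex that bundles the central spindle and recruits ECT2. Kif23 was at 6.83, 6.67 and 6.53 on the AML arrays and at 7.32, 7.40 and 7.58 on the control arrays, a gap wider than the range of either group (difference -0.76, SE 0.11, adjusted p = 0.0078). Racgap1 was at 5.74, 5.50 and 5.42 against 5.55, 5.66 and 5.61, where the groups overlapped (difference -0.06, 95% CI -0.29 to 0.18). Kif23 minus Racgap1 within each array, a pair singled out after the values were seen, was 1.09, 1.17 and 1.11 in AML and 1.77, 1.74 and 1.96 in control. The groups did not overlap (exact two-sided permutation p = 0.1, the smallest that 3 against 3 arrays allow). The difference of -0.70 largely restates the fall of Kif23, so this p gives no further support. Aurka minus Tpx2, the other pair tried, gave the same permutation p of 0.1. Any pair without overlap between the groups gives this value, so it adds no support either.

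Ect2, the exchange factor that activates RhoA at the equator and whose level is known to matter for megakaryocyte polyploidy, was at 5.69, 5.47 and 5.18 against 5.15, 5.42 and 5.50 (difference +0.09, 95% CI -0.26 to 0.45, adjusted p = 0.672). The groups overlapped, and both means were below the dim reference. Anln, which encodes the ring scaffold anillin, was at 5.68, 5.71 and 5.53 against 5.34, 5.28 and 5.41, every AML value being higher (difference +0.29, SE 0.08, adjusted p = 0.0626). It passed in 4 of 15 alternatives, with array weights, without AML array 3 and in both fits without dim genes (adjusted p 0.0104 to 0.0451). Over all genes 26.1% passed with array weights, 11.99% without AML array 3, and 19.2% and 22.4% without dim genes. With median centring the difference of Anln was +0.17 (adjusted p = 0.271). Its control mean was below the dim reference. Kif4, a chromosome motor that also shapes the central spindle, averaged 5.51 ± 0.10 against 5.78 ± 0.16 (adjusted p = 0.131). Every AML value of Kif4 was lower than every control value, and its AML mean was just below the dim reference. The bundling protein Prc1 and the kinesins Kif20a and Kif20b differed by +0.05, 0.0001 and -0.08.

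**Figure D2:**
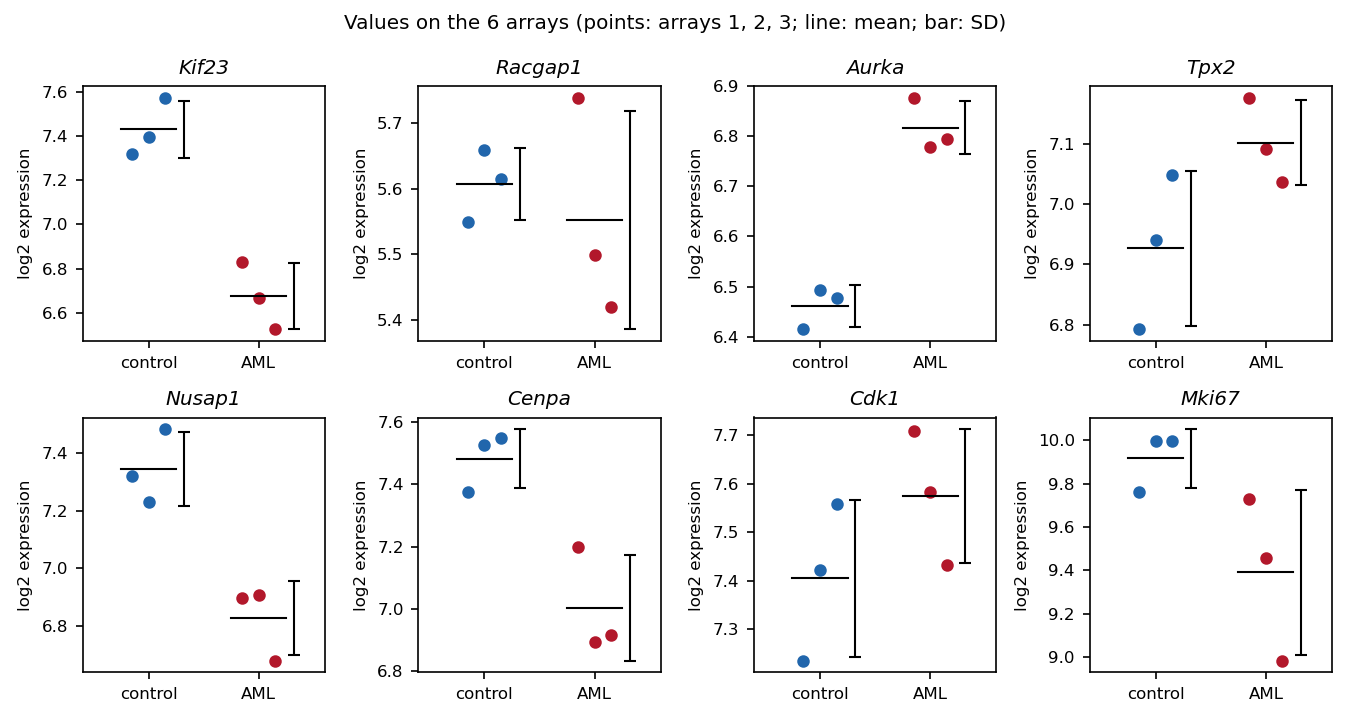
Log2 expression of 8 members on the 3 control arrays (blue) and the 3 AML arrays (red), in the order of arrays 1 to 3, with the mean (line) and SD (bar). Each panel has its own axis, which does not start at 0. The groups are apart for Kif23, Aurka, Nusap1 and Cenpa, and overlap for Racgap1, Tpx2 and Cdk1. For Mki67 the AML values are lower, from 8.98 to 9.73.

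The members varied together between arrays of the same group. Within AML, array 1 was the highest in 35 of the 44 and array 3 the lowest in 31. Within control, array 3 was the highest in 32 and array 1 the lowest in 31. In 35 of the 44 (79.5%) AML array 1 exceeded AML array 3 and control array 3 exceeded control array 1, against 29.2% of all genes. This order was picked after the values of the members were seen, so their high share is no test. Among the 12316 genes above the dim reference AML array 3 was the lowest in 59.8% and control array 1 in 50.5%. AML array 1 was the highest in 39.3% of them and control array 3 in 51.7%, so part of this order was shared by bright genes. The median deviation of the members from their group mean was +0.09, -0.003 and -0.10 on AML arrays 1 to 3 and -0.08, +0.01 and +0.08 on control arrays 1 to 3. Without AML array 3 the number of members past the threshold was 5, of which 3 were higher and 2 lower. That was 11.4% of the members, near the 11.99% of all genes in the same fit.

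Markers of several cell types also differed between arrays of a group. Of the 13 measured megakaryocyte markers, AML array 3 was the highest in 11 and control array 1 in 13, the arrays on which most mitotic genes were lowest, while AML array 2 was the lowest in 12 and control array 2 in 8. The 8 markers of granulocyte-monocyte progenitors ran the same way as the mitotic genes, with AML array 1 the highest in 6, AML array 3 the lowest in 5 and control array 1 the lowest in 8. Macrophage markers were highest on AML array 1 in 8 of 8 and lowest on control array 1 in 6. Neutrophil markers were lowest on control array 1 in 8 of 8 and highest on control array 3 in 7, but lowest on AML array 1 in 6. Erythroid markers were highest on AML array 1 in 7 of 9. The part of these markers in the order of the mitotic genes was not tested. In sorted cells measured in bulk, fewer dividing cells and less RNA per cell cannot be told apart.

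**Figure D3:**
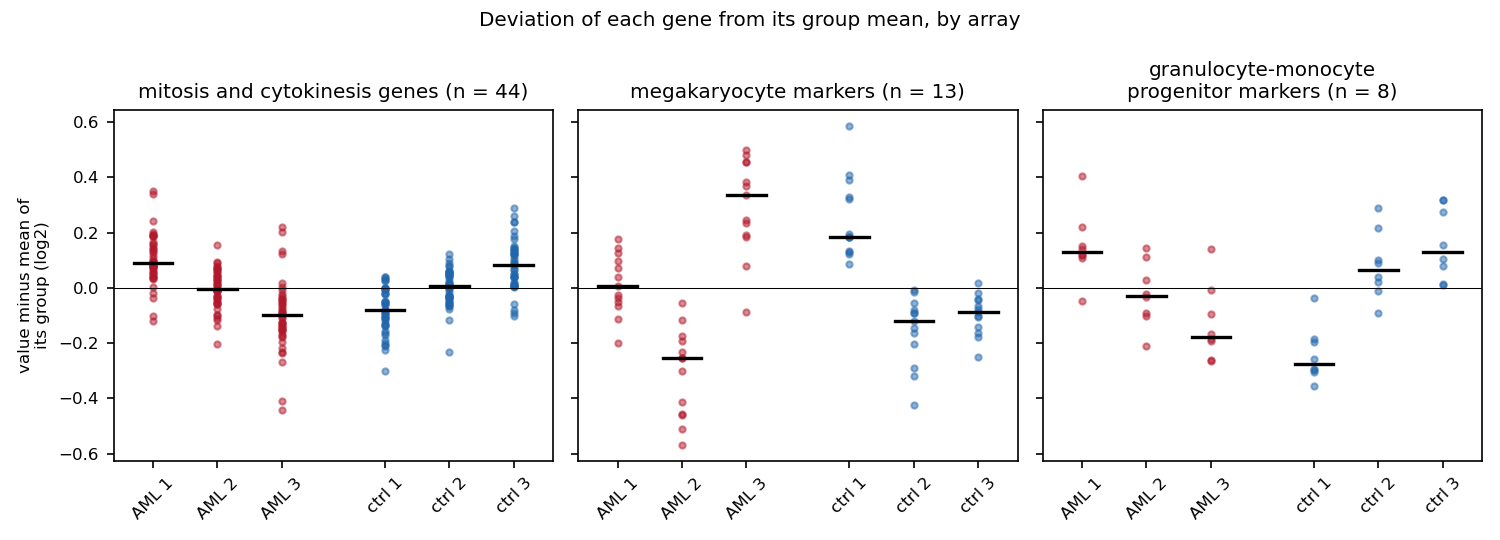
Deviation of each gene from its own group mean (log2) on the 3 AML arrays (red) and the 3 control arrays (blue), for the 44 members, 13 megakaryocyte markers and 8 progenitor markers. Points are genes and black lines are medians. The median of the members goes from +0.09 to -0.10 over AML arrays 1 to 3 and from -0.08 to +0.08 over the control arrays, while the megakaryocyte markers stand highest on AML array 3 and control array 1. Arrays of a group have no order of their own.

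The sorts carried the markers of megakaryocytes, and also those of other marrow cells. The median level of the 13 megakaryocyte markers lay between 8.99 and 9.63 on the AML arrays and between 8.89 and 9.28 on the control arrays. Of the 13, 0 passed the threshold and 2 had an unadjusted p under 0.05 in limma, against 32.8% of all genes. Ppbp and Pf4 were brightest at means of 12.23 and 11.98 in AML. Progenitor markers had medians of 8.66 to 9.06 in AML and 7.91 to 8.45 in control, and 3 of 8 rose, with Elane and Mpo brightest, at 10.96 and 10.32 in AML. Neutrophil markers (8 of 8 lower, brightest Ngp and Retnlg) had medians of 9.35 to 9.91 against 11.45 to 11.74. Macrophage markers (5 of 8 lower, brightest Cd68 and C1qb) had 7.54 to 8.28 against 8.69 to 9.12, and monocyte markers (4 of 6 lower, brightest Ly6c2 and Fn1) had 6.21 to 6.84 against 7.50 to 7.67. Erythroid markers (5 of 9 lower, brightest Epor and Slc4a1) had 5.63 to 5.75 against 5.86 to 6.02, and B lineage markers (6 of 7 lower, brightest Ighm and Cd79b) had 5.42 to 5.62 against 5.85 to 6.19. All 6 T and NK cell markers (1 higher, brightest Cd3d and Cd3e) were below the dim reference in both groups. The part of these markers in the falls of Kif23, Nusap1 and Cenpa or in the rise of Aurka was not tested.

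Beyond the members, 169 measured genes of cell division in 7 further lists gave 6 higher and 13 lower, or 11.2%, again near the 10.7% of all genes. The lists were drawn from textbook knowledge. Regulators of entry (17 genes, 1 higher and 1 lower, median +0.03) included Bora, an activator of the kinase PLK1, at 6.73, 6.71 and 6.47 against 6.14, 6.19 and 6.19 (difference +0.46, adjusted p = 0.0238). Lin54, the DNA-binding subunit of the MuvB core that recognises the CHR element, was lower at 7.23 ± 0.06 in AML than at 7.78 ± 0.13 in control (adjusted p = 0.0120). Mybl2, the MYB partner of that core, stood at 6.74 ± 0.22 against 6.36 ± 0.11 (difference +0.38, adjusted p = 0.0921), and Foxm1 was not analysed here. The call of Bora was lost under median centring (adjusted p = 0.0744) and on omitting any one array except AML 3. Omitting control 2 or control 3 ended that of Lin54.

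Condensin and cohesin genes (18, 0 higher and 1 lower, median -0.15) held Stag2, a cohesin subunit, which was lower at 6.27 ± 0.17 in AML than at 6.82 ± 0.19 in control (adjusted p = 0.0367), a call that ended on omitting AML 2, AML 3, control 2 or control 3. Of 28 further kinetochore genes 0 passed, and the median was +0.004. An unadjusted p under 0.05 in limma was reached by 9 of the 28, near the 32.8% of all genes. Further checkpoint and anaphase genes (23, 0 higher and 2 lower, median -0.02) held Pttg1, which encodes securin, the inhibitor of separase. It was at 6.47, 6.61 and 6.61 in AML against 7.16, 7.12 and 7.21 in control, well apart (difference -0.60, adjusted p = 0.0049). Anapc10, a subunit of the anaphase-promoting complex, fell by 0.49 (adjusted p = 0.0121), a call that ended on omitting control 2 or control 3, and Fzr1, the activator that replaces CDC20 late in mitosis, differed by -0.07.

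Further spindle and centrosome genes (32, 1 higher and 2 lower, median +0.03) held Tubg1, the gamma-tubulin of centrosomes, which was higher at 7.63 ± 0.13 in AML than at 7.06 ± 0.12 in control (adjusted p = 0.0167). Nek7, a mitotic kinase, fell by 0.72 and Depdc1a, a gene expressed in mitosis, by 0.70. The call of Tubg1 was lost under median centring (adjusted p = 0.0529). Omitting AML 2, control 2 or control 3 ended those of Tubg1 and Nek7, and omitting control 2 that of Depdc1a.

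Genes of cytokinesis and abscission outside the member list had 6 lower and 0 higher of 26 (23.1%, against 6.25% of all genes lower), with a median of -0.21. Of the 22 above the dim reference in both groups 5 were lower (22.7%), against 11.7% of the 12316 genes above it. Rock1, the RhoA effector kinase that drives the contractile ring, was at 6.96, 7.04 and 6.95 against 7.86, 7.91 and 8.07 (difference -0.96, adjusted p = 0.0013). Septin7 and Septin11, filament proteins of the furrow, fell by 0.69 and 0.45 (adjusted p 0.0175 and 0.0237). The other 3 were Rhoa, the ESCRT gene Chmp2b and the ATPase gene Vps4b, named here since the count is small. These proteins also serve cell shape, migration and membrane traffic in cells that do not divide. Omitting control 2 or control 3 ended the calls of the 5 genes other than Rock1, and omitting AML 1 or AML 2 ended those of Septin11, Rhoa, Chmp2b and Vps4b. Those of Rhoa, Chmp2b and Vps4b also ended on omitting AML 3, and that of Chmp2b on omitting control 1. Septin11 also lost its call under renewed quantile normalization (adjusted p = 0.0519). Arhgef2, a RhoA exchange factor, stood at 6.17 ± 0.04 against 6.21 ± 0.12, and Myh10, non-muscle myosin IIB, whose silencing accompanies polyploidisation, was below the dim reference in both groups at 4.58 ± 0.06 against 4.56 ± 0.03.

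Genes of G1 and endocycle control (25, 4 higher and 1 lower) had a median of +0.01. This is 20.0% past the threshold, against 10.7% of all genes and 16.0% of those above the dim reference. Of the 25, 21 lay above that reference in both groups. Cdkn1b, which encodes the CDK inhibitor p27, was at 5.36, 5.31 and 5.52 in AML against 6.35, 6.30 and 6.38 in control, a 1.92-fold lower level (adjusted p = 0.0013). Cdkn2a, a CDK inhibitor locus, rose by 0.44, E2f6, a repressor of the E2F family, by 0.45, Cdk4 by 0.62 and Cdk6 by 0.90. The calls of Cdk4 and Cdk6 were lost under median centring (adjusted p 0.0937 and 0.0913) and on omitting any one array except AML 3. Omitting control 2 ended that of Cdkn2a, and omitting AML 2, control 2 or control 3 that of E2f6. The G1 cyclins Ccne1 and Ccnd3 stood at 6.17 ± 0.09 against 6.02 ± 0.05 (adjusted p = 0.209) and at 7.35 ± 0.08 against 7.22 ± 0.03 (adjusted p = 0.257).

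**Figure D4:**
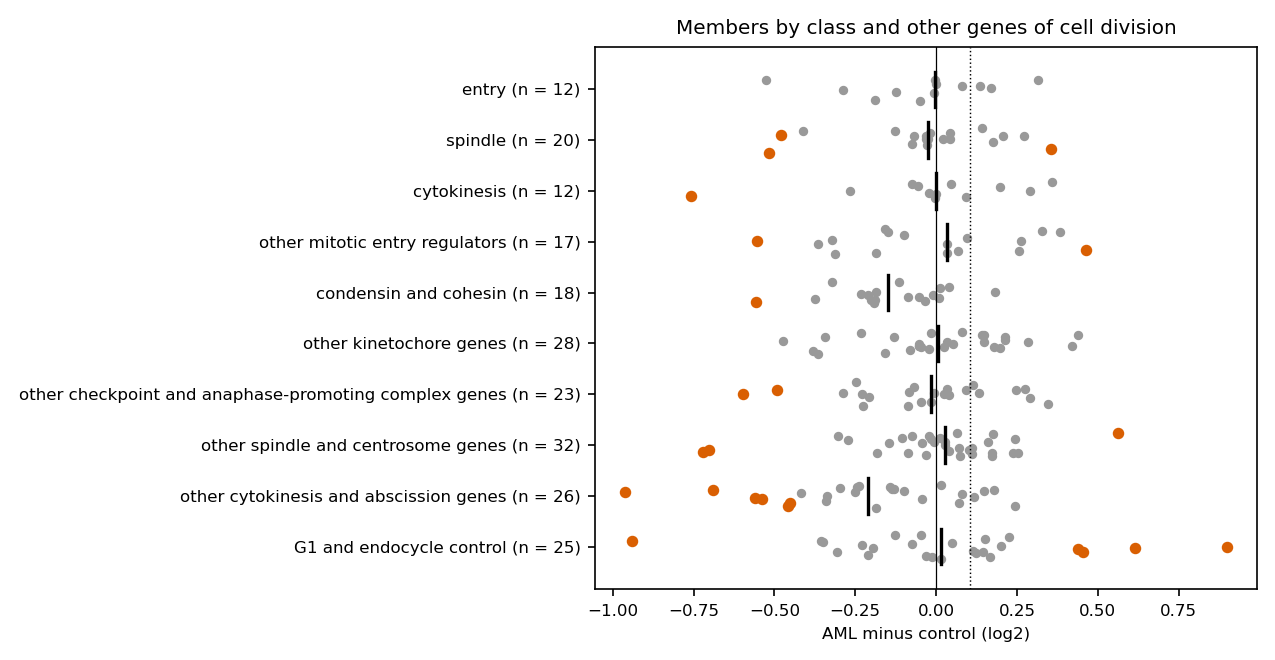
Differences between AML and control (log2) of the 44 members in their 3 classes and of 169 other genes of cell division in 7 lists. Orange points passed an adjusted p of 0.05, grey points did not, black bars are medians, and vertical scatter within a list has no meaning. The solid line is no difference and the dotted line the median of all genes. The list of other cytokinesis and abscission genes has 6 points past the threshold, all to the left, and a median of -0.21.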

How the data were processed

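The values the authors deposited are on a log2 scale and were made by RMA, per the submitters' processing notes, from an Affymetrix array, per the labels' protocols. RMA version and genome build are not given in the sources used here. RMA scales arrays to one distribution, which can hide a global change. Array medians over genes were 5.29 to 5.32 in AML and 5.16 to 5.24 in control, a shift left in the values.

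Of 72688 rows, 30604 had 1 gene symbol, updated through RefSeq GRCm38.p6 (names only), 2146 had several and named no gene, and 39938 had none. The brightest row of a gene was kept, leaving 30063 genes. limma (3.58.1, R 4.3.3; lmFit and eBayes without trend) was fitted over all genes, two-sided, with Benjamini-Hochberg adjustment and a threshold of 0.05. No filter was applied. On simulated data with 50 genes changed at each size, the fit recovered 18 at 1.5-fold, 45 at 2-fold, 48 at 2.83-fold and 50 at 4-fold. It called 6 unchanged genes. The simulation changed far fewer genes than the 3230 called in the data, which makes the adjustment stricter there. Recovery in the data may therefore differ from these counts. Changes of 1.5-fold or less can be missed.

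The members and lists were chosen with earlier results of these data known. Array values are given for members past the threshold, the 2 with the smallest p in each role, the largest rise and fall, and named endomitosis genes, and of other lists up to 3 genes past the threshold per direction. Other scalings, variance models, dim filters, the replicate block and each array left out were tried.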

Additional observations from a re-analysis of the deposited data

How the results depend on the processing

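Of 45 listed genes, 0 of the 44 measured changed direction in a fit where they passed. Among the 40 not past the threshold, 35 passed in none of the 15 alternative fits, 5 passed in at least 1 (Ccna2, Tpx2, Aurkb, Cdca8 and Anln), and 23 changed sign without passing in at least 1. Each of the 4 that passed lost its call in at least 1. The count of 4 (9.09%, against 10.7% of all genes) became 8 with array weights (18.2%, against 26.1%), 7 with renewed quantile normalization (15.9%, against 11.6%), 7 at an adjusted p of 0.10 (15.9%, against 21.6%), 1 with a minimum of 1.5-fold (2.27%, against 5.21%), and 1 to 5 without single arrays (2.27% to 11.4%, against 3.22% to 11.99%). Entry genes, 0 in the reported fit, gave 1 with array weights, 1 with median centring and 1 in each fit without dim genes. Spindle genes, 3, gave 0 to 2 without single arrays. Cytokinesis genes, 1, gave 4 with array weights and 3 each with cyclic loess and renewed quantile normalization. They gave 2 in each fit without dim genes, and 1 to 3 without single arrays. All members together gave 6 with cyclic loess (13.6%, against 11.97% of all genes). Each fit without dim genes also gave 6 (13.6% of the 44, against 19.2% and 22.4% of the genes kept). The stricter of these fits dropped genes below the median level, and with them some members. Median centring took the median difference of all members to -0.13 and of the spindle genes to -0.15, as it took that of all genes from +0.11 to -0.01. The cause of the other changes was not tested.

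With the replicate number as a block 0 members passed, 0 of them spindle and 0 cytokinesis genes, and Kif23 had an adjusted p of 0.0518, while over all genes 1067 passed in place of 3230. The labels give the numbers no meaning beyond the replicate, so whether they pair the samples is not known. The deviations of same-numbered arrays correlated across genes at -0.36, 0.14 and -0.29, and those of unlike numbers at -0.28 to 0.43. Such correlations cannot decide the pairing, since deviations from a mean of 3 arrays depend on each other. Of the 19 other cell division genes past the threshold, 16 lost their call with the block, and Rock1, Pttg1 and Cdkn1b lost it in no alternative.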
